A study of Rattus norvegicus with 8 samples.

Results

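Antisense predicted long non-coding RNAs (lncRNAs) are assembled transcripts that lie on the strand opposite to an annotated gene and overlap it. They were taken as every transcript of the deposited lncRNA table whose class code was x, the code that the usual transcript-comparison scheme gives to exonic overlap on the opposite strand. The table held 258 of them among 4686 predicted lncRNAs, at 233 assembled loci and against 218 sense gene symbols. Each was matched to its sense gene by the overlapped gene's symbol: 223 had a single annotated row in the deposited gene table (190 different genes), 15 had several rows and were left unpaired, and 20 had none. The libraries came from thoracic aorta of wild-type male Sprague Dawley rats, 12 weeks old per the labels and of 180 to 200 g. In the nitroglycerin group (4 libraries) the rats received glyceryl trinitrate (GTN), a nitrate drug that relaxes vessels, under the skin at 100 mg/kg, 3 times daily for 3 days. The control group (4 libraries) received ethanol, the vehicle, on the same schedule. No label ties a library to an individual rat, so the p-values describe only the spread between libraries, which may be technical.

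Natural antisense transcripts are RNAs copied from the strand opposite to a gene. Some arise from a promoter of their own, some from a promoter shared with a neighbouring gene or from a neighbouring gene that runs on past its end, and many stay in the nucleus at low levels. Known examples can pair with the sense RNA, recruit chromatin-silencing complexes or interfere with transcription of the sense gene, while many have no known function. Abundance is given in FPKM, sequenced fragments scaled by transcript length and by the library's total, so levels of different transcripts are compared per length. The labels do not say whether library preparation kept the strand of the RNA. Without strand, reads of a gene and of its antisense partner could not be told apart where the 2 overlap, and a strand given to a transcript with 1 exon would be uncertain.

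The 250 bases upstream of the RefSeq start of 4 sense genes are printed here because the results on differential abundance turn on these pairs. They are from the GRCr8 assembly, 5′ to 3′ on the strand of the sense gene, with each CG dinucleotide in capitals. Smarca2 is at chr1:233617121-233617370 (plus strand), Adamts9 at chr4:127019877-127020126 (minus strand), Heyl at chr5:140793021-140793270 (plus strand) and Inpp5d at chr9:95735283-95735532 (plus strand).
Smarca2: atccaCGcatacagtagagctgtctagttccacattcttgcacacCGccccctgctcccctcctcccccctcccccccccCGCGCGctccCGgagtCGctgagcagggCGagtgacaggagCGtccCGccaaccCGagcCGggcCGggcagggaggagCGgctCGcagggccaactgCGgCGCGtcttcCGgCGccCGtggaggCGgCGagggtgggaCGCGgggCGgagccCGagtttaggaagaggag
Adamts9: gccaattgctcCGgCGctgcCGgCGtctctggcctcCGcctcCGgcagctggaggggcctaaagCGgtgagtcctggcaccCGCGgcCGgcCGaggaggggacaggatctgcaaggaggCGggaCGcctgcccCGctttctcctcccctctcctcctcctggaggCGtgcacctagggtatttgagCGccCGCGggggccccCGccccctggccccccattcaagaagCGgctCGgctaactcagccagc
Heyl: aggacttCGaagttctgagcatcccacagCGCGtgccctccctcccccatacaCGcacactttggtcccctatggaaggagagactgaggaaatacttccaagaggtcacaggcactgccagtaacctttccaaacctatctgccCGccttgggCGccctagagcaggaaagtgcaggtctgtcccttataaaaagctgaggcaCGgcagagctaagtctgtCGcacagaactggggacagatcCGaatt
Inpp5d: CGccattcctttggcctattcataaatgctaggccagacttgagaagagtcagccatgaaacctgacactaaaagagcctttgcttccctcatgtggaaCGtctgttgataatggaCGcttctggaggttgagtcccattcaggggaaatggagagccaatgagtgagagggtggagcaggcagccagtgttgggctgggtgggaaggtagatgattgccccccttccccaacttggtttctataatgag
The Smarca2 window held 27 CG dinucleotides, a number reached by 7.71% of the 33360 RefSeq promoter windows of this length, and the Adamts9 window held 21, reached by 15.2%. Heyl held 9 (38.6% of windows) and Inpp5d 3 (71.5%). GGGCGG, the core of the Sp1 site, searched on both strands, was in the Smarca2 and Adamts9 windows, and TATAAA was in the Heyl window. Over the 181 windows of the 150 sense symbols that matched, the median was 11 CG dinucleotides against 5 in all windows, and the median GC content was 56.4% against 51.6%. GGGCGG was in 41.4% of these windows against 30.5% of all, CACGTG in 8.84% against 5.61%, and TATAAA in 6.08% against 12.9%. The comparison was with all windows, not limited to protein-coding genes or to genes expressed in these libraries. These are descriptions of letters in a window, without a test.

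The antisense transcripts were less often single-exon than the table as a whole. A single exon made up 168 of 258 (65.1%), against 86.2% of all predicted lncRNAs, 91.8% of intronic ones (class i) and 91.0% of intergenic ones (class u). The remaining 90 had up to 10 exons. Their median length was 1949 nt (range 204 to 19412) against 951 nt in the whole table. Their mean FPKM over the 8 libraries had a median of 0.867 and a maximum of 20.3, against a median of 0.446 in the whole table, and 119 reached a mean of 1. They lay on the plus strand in 127 cases and on the minus strand in 131. All had a negative CPC coding-potential score, down to -1.47, the range of a non-coding call. The remaining classes, o (142 transcripts) and j (44), were less often single-exon still (0.704% and 0%). Their mean FPKM had medians of 2.49 and 1.34, and 57.0% and 84.1% were above 0 in all 8 libraries, against 36.4% of the antisense class.

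The strand was also compared with RefSeq. Class x already requires the strand opposite to the annotated gene. The comparison therefore shows only whether RefSeq gives that gene the same strand, and does not test the class. For 174 antisense transcripts the sense symbol had a RefSeq start with a strand, and 169 (97.1%) lay on the opposite strand. The share was 96.5% for those with a single exon and 98.3% for those with several, whereas among intronic transcripts 121 of 1081 (11.2%) were opposite to the host gene. The exceptions, on the same strand as the GRCr8 gene, were those assigned to Ndufaf7, Ppp2r3b, Gpr137b, Zswim4 and Lyl1. Of 149 protein-coding sense genes, 70 (47.0%) overlapped a RefSeq gene on the other strand, against 2104 of 7215 protein-coding genes that passed the gene-level filter (29.2%). That overlapping gene was an lncRNA for 18.1% of the sense genes and protein-coding for 29.5%, against 14.4% and 16.1%. Smarca2, Adamts9, Heyl, Coro2b and Inpp5d each have an annotated RefSeq lncRNA on the other strand. Nr1d1 (a clock repressor) overlaps Thra (the thyroid hormone receptor), a textbook sense and antisense pair, and Cnbd2 overlaps Scand1, Ezh2 overlaps Cul1 and Bace1 overlaps Rnf214. Whether an assembled transcript is that neighbour was not tested.

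**Figure D1:**
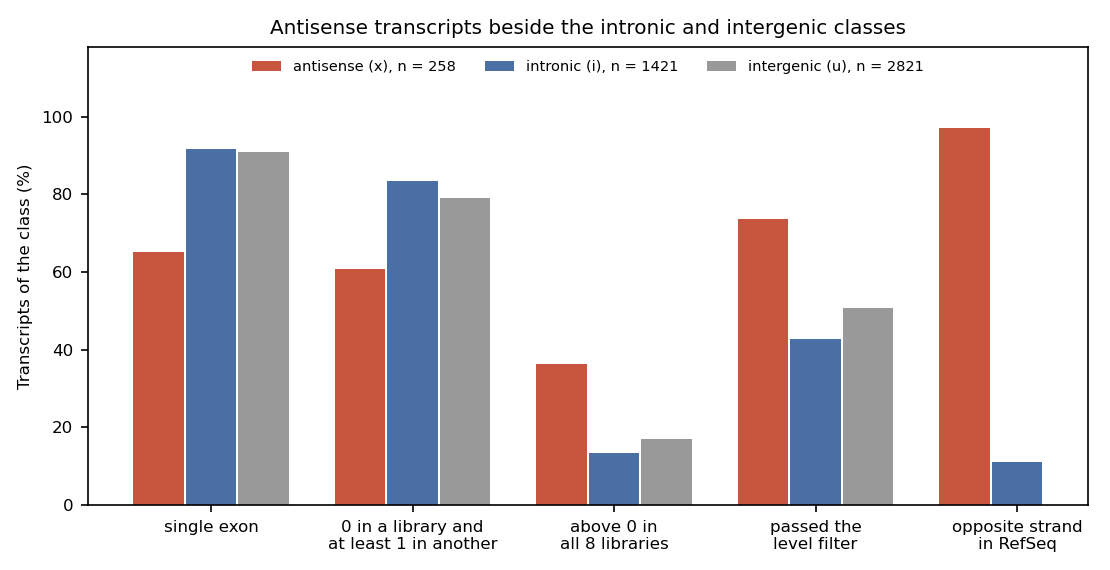
Percentage of predicted lncRNA transcripts of 3 classes with each property, as bars from 0 (antisense n = 258, intronic n = 1421, intergenic n = 2821). The last property is the share on the strand opposite to the assigned gene in RefSeq, over 174 antisense and 1081 intronic transcripts, and intergenic transcripts have no assigned gene. The antisense class is lower than the intronic and intergenic classes in single-exon transcripts and higher in transcripts above 0 in all 8 libraries.

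Aligned sequence was 7.48 to 8.86 Gb in the control libraries and 6.77 to 8.39 Gb in the nitroglycerin libraries. Between 170 and 192 antisense transcripts were above 0 in a control library and between 169 and 201 in a nitroglycerin library. Nitroglycerin library 4 had the most, 201, although it had the least aligned sequence, and 60.4% of all predicted lncRNAs were above 0 there against 49.1% to 53.7% in the others. The 100 gene rows of highest FPKM held 52.3% to 72.0% of all gene FPKM in control libraries and 48.1% to 51.1% in nitroglycerin libraries. The part of this share in the differences below was not tested. The summed FPKM of the 258 ranged from 259 to 346 over the controls and from 325 to 482 over the nitroglycerin libraries. The median gene was also higher in the nitroglycerin libraries, by 0.30 on the log2(FPKM + 1) scale. The lncRNA and gene fits below were therefore repeated after dividing every library by its median-of-ratios size factor, called rescaling here. Controls had size factors of 0.734 to 0.986, and nitroglycerin libraries had 1.06 to 1.20. The antisense to sense ratios and the groups by role of the sense gene were compared without rescaling. Smooth muscle markers fitted the tissue label, with Acta2 at 1762 to 2401 FPKM in controls and 1061 to 2359 FPKM in nitroglycerin libraries. The 8 adipocyte markers summed to 9.53 to 25.4 FPKM in controls and 14.3 to 113 FPKM in nitroglycerin libraries. The highest sum was that of nitroglycerin library 1, where the fat hormone Adipoq was at 15.0 FPKM against 0.0965 to 1.80 in the others; the extraction protocol in the labels speaks of adipose material. Of the marker lists, limma called 2 of 9 tested endothelial genes higher (Esam and Eng) and 1 of 8 macrophage genes higher, where 1.29% of all gene rows were called higher, and 1 of 4 skeletal muscle genes lower (Ckm; 0.0616% of all gene rows were called lower), and none of the 7 smooth muscle, 6 fibroblast, 3 adipocyte and 1 nerve genes tested. Their median log2 differences ran from -0.44 for skeletal muscle and -0.23 for smooth muscle and nerve to 0.43 for macrophage, 0.50 for endothelial, 0.53 for fibroblast and 0.87 for adipocyte markers, against 0.30 for all genes. The fibroblast markers nevertheless summed to less in nitroglycerin libraries (1417 to 1543 FPKM) than in controls (1708 to 2482 FPKM). By limma, 3 of the 6 were higher and 1 lower at an unadjusted p under 0.05, against 34.1% and 1.02% of all gene rows. After rescaling, limma called 0 endothelial and 0 macrophage markers, and 1 skeletal muscle gene (0.131% of all gene rows were called). Smooth muscle markers then had a median of -0.62, with 3 of 7 lower at an unadjusted p under 0.05, and adipocyte markers 0.53, against 0.01 for all genes. Endothelial, fibroblast and macrophage markers had 0.19, 0.16 and 0.10, and skeletal muscle and nerve markers -0.72 and -0.43. Fewer cells of a type and less RNA per cell cannot be told apart in these bulk libraries. The part of these marker differences in the antisense results was not tested.

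Detection was uneven between libraries. Of the 258, 94 (36.4%) were above 0 in all 8 libraries, against 18.9% of the whole table, and 157 (60.9%) were at 0 in at least 1 library while reaching 1 FPKM in another, against 77.7%. An exact 0 in such tables can be a failed estimate. No antisense transcript was above 0 in all 4 libraries of 1 group and at 0 in all 4 of the other. Testing required at least 0.1 FPKM in at least 4 libraries, which 190 of 258 (73.6%) met, 165 of them with a single matched sense row. The 23 transcripts that met this in exactly 4 libraries had mean values of 0.285 to 2.87 FPKM (median 0.588), and the 21 that met it in exactly 3 had 0.0843 to 0.880 FPKM (median 0.357).

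Within pairs, the single assembled antisense transcript was usually less abundant than the whole sense gene. A locus with several antisense transcripts can hold more than each of them. At Inpp5d the whole antisense locus was above the sense gene in every library. Over the 165 tested pairs the median level was 1.23 FPKM for the antisense transcript and 2.63 FPKM for the sense gene. The antisense level was a median of 0.517 of the sense level, with quartiles of 0.225 and 1.09. It exceeded the sense level in 44 pairs (26.7%), and in 29 of these the sense gene was under 1 FPKM. For 562 intronic lncRNAs matched in the same way, the median ratio to the host gene was 0.379, and 16.0% exceeded it. Across the 165 pairs, Pearson's correlation of the log2 levels was 0.21 and Spearman's was 0.242. Both values of a pair come from the same libraries and possibly from the same reads, and some pairs share a sense gene.

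**Figure D2:**
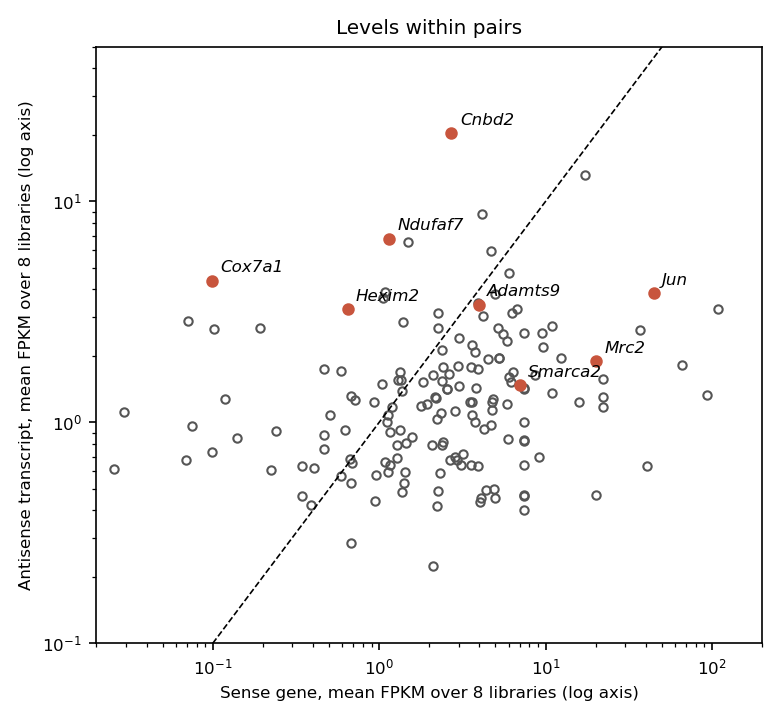
Mean FPKM over 8 libraries of the antisense transcript (vertical, log axis) against that of its sense gene (horizontal, log axis) for 165 tested pairs. Each circle is a pair, the dashed line marks equal levels, and filled circles are pairs named in the text; 44 pairs lie above the line.

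The most abundant antisense transcript was the one opposite to Cnbd2, a cyclic-nucleotide-binding domain protein. This single-exon transcript (chr3:152459533-152465498, minus strand, 5966 nt) was at 17.2, 23.0, 21.4 and 22.3 FPKM in the controls and at 24.9, 0, 26.2 and 27.5 FPKM in the nitroglycerin libraries. It was therefore high in 7 libraries and listed at 0 in nitroglycerin library 2. Cnbd2 itself was at 2.51 ± 0.205 FPKM in controls and 2.93 ± 0.266 FPKM in nitroglycerin libraries (mean ± SD, n = 4 per group), so the antisense mean was 7.46 times the sense mean. The pair had the highest such ratio among sense genes with a mean of at least 1 FPKM. It was followed by Ndufaf7 (a complex I assembly factor; 5.92 times), LOC687508 (4.36 times), Prorsd1 (3.61 times) and Ppp2r3b (a regulatory subunit of protein phosphatase 2A; 3.46 times). Those assigned to Ndufaf7 and Ppp2r3b are 2 of the 5 that lay on the same strand as the RefSeq gene.

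Jun, the AP-1 transcription factor, had the antisense transcript with 6 exons that was among the 5 most abundant spliced ones. That transcript was at 2.39, 4.06, 3.39 and 2.96 FPKM in controls and 3.58, 5.26, 3.90 and 5.28 FPKM in nitroglycerin libraries, and the groups overlapped. The Jun row was at 0, 38.1, 31.2 and 39.1 FPKM in controls and 101, 40.0, 79.1 and 29.5 FPKM in nitroglycerin libraries. Its 0 in control library 1, beside values of at least 29.5 FPKM in the others, may be a failed estimate. Another of these 5, opposite to Cox7a1 (a muscle-type subunit of cytochrome c oxidase), had a mean of 3.63 ± 0.688 FPKM in controls and 5.14 ± 1.22 FPKM in nitroglycerin libraries, 44.1 times that of Cox7a1 itself. The Cox7a1 mean was thus near 0.1 FPKM. Capns1 lies on the other strand of Cox7a1 in RefSeq. The remaining spliced ones were those opposite to LOC687508, Zw10 and AABR07066440.1. That opposite to Zw10, a kinetochore protein, was at 1.79, 2.99, 2.48 and 3.05 FPKM in controls and 7.95, 2.05, 8.17 and 2.12 FPKM in nitroglycerin libraries, high in nitroglycerin libraries 1 and 3 alone. That opposite to AABR07066440.1 was at 3.09 ± 0.432 and 4.28 ± 0.647 FPKM (SD, n = 4 per group), without overlap (log2 difference 0.45, and 0.08 after rescaling; limma adjusted p 0.582).

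Between nitroglycerin and control aortas, the antisense transcripts had about the same median difference as all predicted lncRNAs. A transcript is called when its adjusted p is under 0.05 (limma on log2(FPKM + 0.1), Benjamini-Hochberg adjustment over all 2390 tested lncRNAs). By limma, 0 of 190 antisense transcripts were called, against a background of 0.0418% of tested lncRNAs. At an unadjusted p under 0.05, 14 (7.37%) were higher and 4 (2.11%) lower, against 7.62% and 1.13% of tested lncRNAs. The groups did not overlap for 22 higher transcripts (11.6%, background 7.28%) and for 0 lower ones (background 0.335%). The median log2 difference was 0.37 for the antisense transcripts and 0.36 for all tested lncRNAs, and 130 of 190 (68.4%) were above 0, against 68.5%. After rescaling, 0 were called by limma (background 0.0418%), 4 were higher and 6 lower at an unadjusted p under 0.05 (backgrounds 2.8% and 2.13%), and the median was 0.03 against 0.05. Without nitroglycerin library 4 the number higher at an unadjusted p under 0.05 was 7, and without nitroglycerin library 3 it was 8. The number lower was 2 without control library 1, 2 or 3.

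Among antisense transcripts of transcription and chromatin genes, that opposite to Smarca2 had the lowest p-value of all. Smarca2 encodes BRM, an ATPase of the SWI/SNF chromatin remodelling complex. The antisense transcript has 2 exons and 1084 nt and lies at chr1:244610138-244618610, minus strand (coordinates here and below as in the deposited lncRNA table). It was at 0.523, 0.412, 0.636 and 0.714 FPKM in controls and at 2.19, 1.54, 2.29 and 3.45 FPKM in nitroglycerin libraries. Every nitroglycerin library was above every control, with means of 0.572 ± 0.132 and 2.37 ± 0.794 FPKM (SD, n = 4 per group). The log2 difference was 1.84 (SE 0.38), with an unadjusted limma p of 0.000892 and a limma adjusted p of 0.206. After rescaling the log2 difference was 1.49 and the limma adjusted p was 0.459. Over 18 settings the difference ranged from 1.07 to 2.02 and the limma adjusted p from 0.0291 to 0.58. It was under 0.05 in 2 of them, which kept only lncRNAs at 0.1 FPKM or more in all 8 libraries (0.0291) or above 0 in all 8 (0.0394). With the latter filter, added after the data were seen, 1 of 94 antisense transcripts was called (background 0.339%).

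Smarca2 mRNA was at 5.39, 6.12, 5.50 and 5.87 FPKM in controls and at 8.80, 5.75, 8.39 and 10.1 FPKM in nitroglycerin libraries. Nitroglycerin library 2 lay within the control range, and the limma adjusted p was 0.0956 (log2 difference 0.44; 0.10 after rescaling, adjusted p 0.801). The antisense to sense ratio was from -3.60 to -2.88 on the log2 scale in controls and from -1.96 to -1.52 in nitroglycerin libraries, without overlap. The difference in this ratio was 1.35 (SE 0.34), with an unadjusted limma p of 0.00298 and a limma adjusted p of 0.318. Among the 21 tested genes of the SWI/SNF list, which includes Smarca2, 0 were called by limma and 11 were higher at an unadjusted p under 0.05, where 1.35% and 34.1% of all gene rows tested were. After rescaling, 0 were higher and 1 lower at an unadjusted p under 0.05.

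Heyl encodes a transcriptional repressor induced by Notch signalling in vascular smooth muscle. Its antisense transcript (3 exons, 4849 nt, chr5:140929494-140938560, minus strand) was at 0.601, 0.693, 1.15 and 2.39 FPKM in controls and 3.06, 2.22, 2.74 and 2.78 FPKM in nitroglycerin libraries. Control library 4 lay within the nitroglycerin range and the other controls below it. The log2 difference was 1.28 (SE 0.43; limma adjusted p 0.505), and Heyl mRNA was at 10.7 ± 3.58 and 14.2 ± 1.38 FPKM (SD, n = 4 per group) which differed by 0.42 on the log2 scale (limma adjusted p 0.187).

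Hexim2 encodes an inhibitor of the elongation factor P-TEFb. The antisense transcript, a single exon of 9850 nt at chr10:91207617-91217466 (minus strand), was at 1.88, 1.87, 2.96 and 3.07 FPKM in controls and 3.66, 3.65, 3.92 and 4.98 FPKM in the nitroglycerin libraries. The groups did not overlap, and the log2 difference was 0.73 (SE 0.26; limma adjusted p 0.516), falling to 0.36 after rescaling. Hexim2 itself was at 0.480 to 0.937 FPKM in controls and 0.457 to 0.798 FPKM in nitroglycerin libraries, too low for the gene-level test, and the antisense mean was 5.02 times the sense mean. The log2 ratio lay between 1.37 and 1.83 in controls and between 2.16 and 3.15 in nitroglycerin libraries, a difference of 0.97 (SE 0.27; unadjusted limma p 0.00494, adjusted p 0.46).

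**Figure D3:**
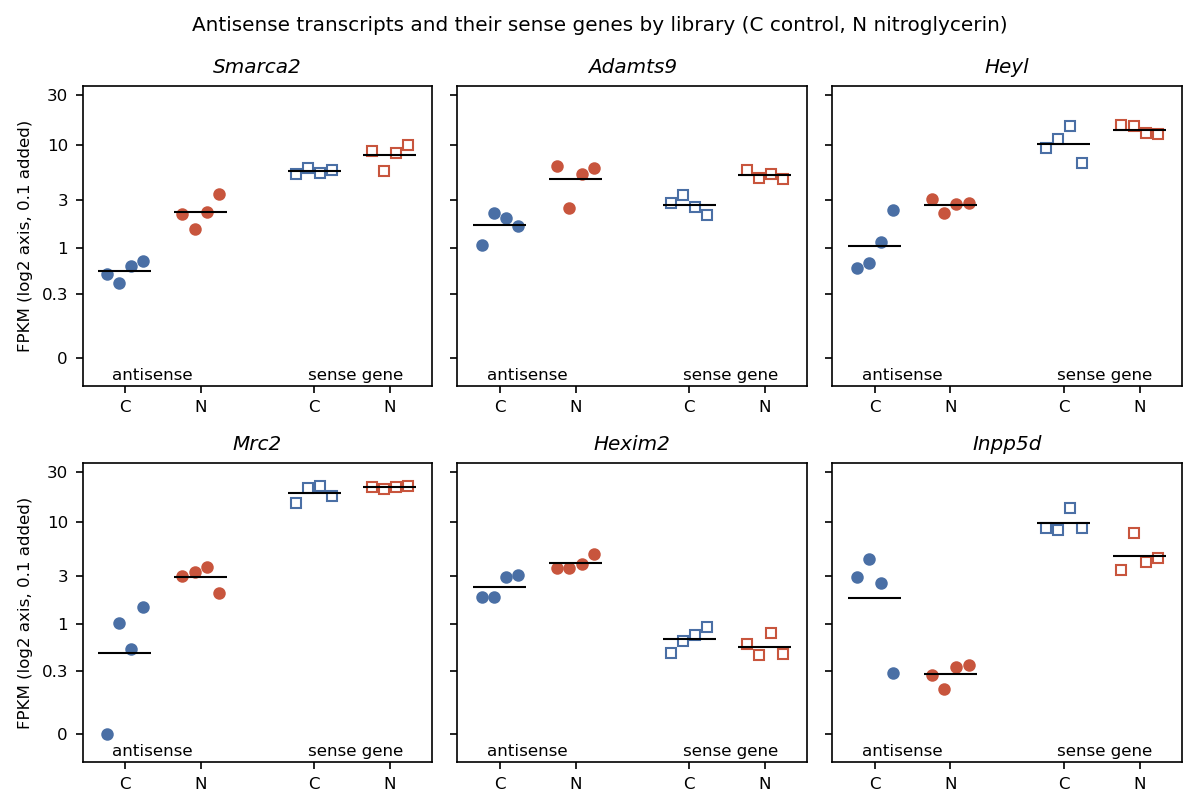
FPKM of 6 antisense transcripts (filled circles) and their sense genes (open squares) in each library, on a log2 axis with 0.1 FPKM added; C marks the 4 controls, N the 4 nitroglycerin libraries, and bars are group means on the plotted scale. The groups do not overlap for the antisense transcripts of Smarca2, Adamts9, Mrc2 and Hexim2, nor for the sense genes Adamts9 and Inpp5d.

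Adamts9, a secreted metalloproteinase that cleaves proteoglycans of the matrix, was the 1 pair in which both partners lay above the controls and the sense gene was called. Its antisense transcript (1 exon, 1862 nt, chr4:124855096-124856957, plus strand) was at 1.06, 2.25, 2.01 and 1.67 FPKM in controls and 6.41, 2.47, 5.35 and 6.05 FPKM in nitroglycerin libraries. The groups did not overlap, although nitroglycerin library 2 was close to the highest control, and the log2 difference was 1.45 (SE 0.37; limma adjusted p 0.376). Adamts9 mRNA was at 2.81, 3.33, 2.53 and 2.15 FPKM in controls and 5.77, 4.90, 5.39 and 4.77 FPKM in nitroglycerin libraries. It rose by 0.75 (SE 0.12) on the log2(FPKM + 1) scale, with a limma adjusted p of 0.046. After rescaling the difference was 0.45 and the limma adjusted p 0.224. The call was lost when any 1 library other than control 2 or nitroglycerin 2 was left out (limma adjusted p 0.0825 to 0.127). The log2 ratio of the pair differed by 0.51 (limma adjusted p 0.778), with overlapping groups.

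Mrc2, the collagen uptake receptor Endo180, had 2 antisense transcripts from 1 locus. The first (3 exons, 4636 nt, chr10:93515293-93520659, minus strand) was at 0, 1.03, 0.540 and 1.49 FPKM in controls and 3.03, 3.29, 3.67 and 2.06 FPKM in nitroglycerin libraries. The second was at 1.18, 1.05, 0.211 and 0 FPKM in controls and 0.0492, 0.00963, 0.0167 and 1.26 FPKM in nitroglycerin libraries. The first was higher without overlap (log2 difference 2.39, SE 0.80; limma adjusted p 0.505), while the second overlapped and differed by -1.04. The row of the whole antisense locus in the gene table was at 0.803, 1.67, 0.644 and 1.38 FPKM in controls and 2.84, 3.05, 3.41 and 2.77 FPKM in nitroglycerin libraries. It rose by 0.95 (SE 0.17) on the log2(FPKM + 1) scale, with a limma adjusted p of 0.0492. The call was made in 2 of 14 settings, as given and without control library 2, and the limma adjusted p was 0.0512 to 0.147 in the others, rescaling included. This was the 1 call among the 13 antisense loci with several antisense transcripts (1.35% of all gene rows tested were called). Mrc2 mRNA was at 19.0 ± 3.11 and 21.3 ± 0.545 FPKM (SD, n = 4 per group; limma adjusted p 0.375). For the first transcript the log2 ratio to Mrc2 was higher by 2.21 without overlap (limma adjusted p 0.778).

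The other 5 transcripts with the lowest p-values among the higher ones were those opposite to Coro2b, Gabrp, a U4 gene, Tymp and AABR07030544.1. That opposite to Coro2b (an actin-binding coronin; 2 exons) was at 0.676 ± 0.183 and 1.70 ± 0.536 FPKM (SD, n = 4 per group), with a log2 difference of 1.19. Coro2b itself was at 1.38 ± 0.204 and 2.18 ± 0.318 FPKM, without overlap (limma adjusted p 0.0734). That opposite to Gabrp (a GABA-A receptor subunit; 4 exons) was at 1.06 ± 0.574 and 2.43 ± 0.725 FPKM, while Gabrp stayed under 1 FPKM in every library. That opposite to a U4 small nuclear RNA gene differed by 1.17 without overlap. Those opposite to Tymp (thymidine phosphorylase) and AABR07030544.1, at means of 7.47 and 11.05 FPKM in controls, differed by 0.42 and 0.47 without overlap. After rescaling these 2 differences were 0.03 and 0.08, and the limma adjusted p-values of all 5 lay between 0.516 and 0.551 before rescaling.

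Inpp5d, the inositol phosphatase SHIP1 of blood cells, had 11 antisense transcripts, more than any other gene. They lie between positions 94820042 and 94847127 of chromosome 9 on the minus strand, have 7 to 10 exons each, and come from 1 locus whose row in the gene table lists 44 assembled transcripts. Transcript 22 (9 exons, 15697 nt) was at 2.98, 4.37, 2.56 and 0.283 FPKM in controls and 0.263, 0.170, 0.334 and 0.356 FPKM in nitroglycerin libraries. Control library 4 lay among the nitroglycerin libraries, and the other controls were far above them. The log2 difference was -2.37 (SE 0.78; unadjusted limma p 0.0141, adjusted p 0.505). Transcript 14 followed the same order, at 0.224 FPKM in control library 4 against 0.880 to 2.10 FPKM in the other controls and 0.0828 to 0.231 FPKM in nitroglycerin libraries (log2 difference -1.93, limma adjusted p 0.551).

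Transcript 11 of the same locus ran the other way between libraries. It was at 1.02, 0.868, 0.887 and 5.16 FPKM in controls and 7.21, 2.28, 2.22 and 0.734 FPKM in nitroglycerin libraries, highest in control library 4 and nitroglycerin library 1. Transcripts 6 and 7 were at 4.71 and 5.91 FPKM in nitroglycerin library 4 and at 0 in control libraries 2 and 4 and nitroglycerin library 1. The locus as a whole varied less, at 13.5, 14.9, 13.7 and 12.0 FPKM in controls and 8.36, 12.2, 9.58 and 14.0 FPKM in nitroglycerin libraries. Its groups overlapped, and they differed by -0.29 (SE 0.17) on the log2 scale (limma adjusted p 0.225). After rescaling they differed by -0.65 (limma adjusted p 0.192). Single assembled forms therefore ranged more widely between libraries than the locus value did. That value is not the sum of the forms: in nitroglycerin library 4 the 11 transcripts sum to 16.2 FPKM, above the locus at 14.0 FPKM.

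Inpp5d mRNA was at 8.68, 8.41, 13.6 and 8.80 FPKM in controls and 3.49, 7.82, 4.16 and 4.55 FPKM in nitroglycerin libraries. Every nitroglycerin library was below every control, and it was the 1 sense gene lower at an unadjusted p under 0.05 (log2 difference -0.88, SE 0.23; limma adjusted p 0.0635). The limma adjusted p was under 0.05 in 3 of 16 settings: with annotated gene rows only (0.0491), with 1 FPKM in all 8 libraries (0.0413), and without nitroglycerin library 2 (0.0458). After rescaling the difference was -1.21 (limma adjusted p 0.128). Inpp5d is expressed in leukocytes. Of 8 macrophage and leukocyte markers tested, 1 was called (1.35% of all gene rows were), Cd163, which rose from 1.91 ± 0.194 to 4.92 ± 1.48 FPKM (SD, n = 4 per group; limma adjusted p 0.0492). After rescaling, 0 markers of this list were called by limma (0.131% of all gene rows were). The markers of this list summed to 43.6 to 108 FPKM in controls and 64.3 to 109 FPKM in nitroglycerin libraries, and none was at 0 in all libraries. Their part in the Inpp5d values was not tested.

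**Figure D4:**
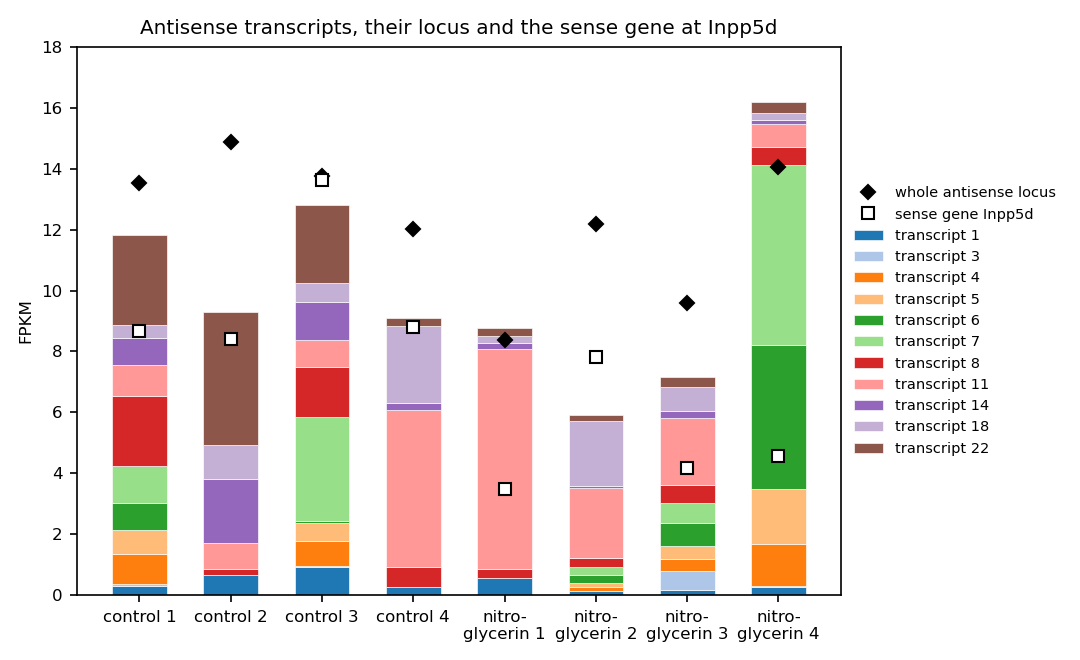
FPKM by library at Inpp5d. Stacked bars, from 0, are the 11 antisense transcripts of the lncRNA table, diamonds the whole antisense locus in the gene table (44 transcripts) and open squares the sense gene. The locus value is not the sum of its transcripts and can lie below the bar. Transcript 22 is prominent in controls 1 to 3, and the sense gene is lower in each nitroglycerin library than in any control.

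Most of the remaining transcripts with the lowest p-values among the lower ones had libraries listed at 0. That opposite to RT1-CE6, an MHC class I gene with near-identical relatives between which reads can be split, was at 0, 5.01, 2.06 and 4.71 FPKM in controls and at 0, 0, 0.123 and 0 FPKM in nitroglycerin libraries (limma adjusted p 0.516). A second Cox7a1 antisense transcript was at 0.836, 1.23, 0.602 and 1.70 FPKM in controls and at 0, 0, 0 and 1.51 FPKM in nitroglycerin libraries (limma adjusted p 0.551). The Cox7a1 locus as a whole overlapped between groups, with a log2 difference of 0.22 (-0.10 after rescaling). That opposite to Bid, a pro-apoptotic BCL-2 family member, was at 2.08, 2.10, 2.35 and 2.04 FPKM in controls and at 2.85, 0, 0 and 2.10 FPKM in nitroglycerin libraries. Those opposite to Pip4k2c (a phosphoinositide kinase), Ppp2r3c and Wnt2b (a Wnt ligand) were at 0 in 3, 2 and 3 nitroglycerin libraries. The other 2, both of 2 exons, were above 0 in all 8 libraries. That opposite to Krt80, a keratin, was at 1.24, 3.46, 2.41 and 0.951 FPKM in controls and at 1.19, 0.845, 1.17 and 0.719 FPKM in nitroglycerin libraries, with controls 2 and 3 highest (log2 difference -0.83; limma adjusted p 0.585). One opposite to LOC100361645 was at 1.02, 0.387, 0.233 and 1.58 FPKM in controls and at 0.210, 0.455, 0.349 and 0.0370 FPKM in nitroglycerin libraries, with controls 1 and 4 highest (log2 difference -1.21; limma adjusted p 0.624). None of these transcripts passed the test, and in each the groups overlapped.

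Sense genes followed the general shift of the gene table. By limma on log2(FPKM + 1), adjusted over 12977 gene rows, 1 of the 142 tested sense genes was called, Adamts9 (0.704%, background 1.35%). At an unadjusted p under 0.05, 53 (37.3%) were higher and 1 (0.704%) lower, against 34.1% and 1.02% of all rows tested. The groups did not overlap for 34 higher sense genes (23.9%, background 24.2%) and for 1 lower gene (background 0.478%). The median log2 difference was 0.31 against 0.30. After rescaling 0 were called by limma (background 0.131%). The filter moved this count most: 14 of 106 sense genes (13.2%) were called when 1 FPKM was required in all 8 libraries, against 12.8% of all gene rows under that filter. When only annotated rows were fitted, 7 of 142 (4.93%) were called, against 8.19%.

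After Adamts9, the sense genes of lowest p among the higher ones were Traf3ip2, Ecsit, Rbm4b and Dusp28. Traf3ip2, the adaptor of the interleukin-17 receptor, was at 3.19, 3.15, 4.61 and 4.38 FPKM in controls and 7.10, 5.61, 8.18 and 5.94 FPKM in nitroglycerin libraries, without overlap (log2 difference 0.68; limma adjusted p 0.0581). It had 2 antisense transcripts, of which the second (2 exons, 1200 nt) differed by 0.72 (limma adjusted p 0.551) and the first by 0.27. Ecsit, a complex I assembly and Toll-pathway factor, was at 3.66 ± 0.653 and 6.01 ± 0.982 FPKM (SD, n = 4 per group), and its antisense transcript differed by 1.61 without overlap (limma adjusted p 0.582). Rbm4b (an RNA-binding protein) and Dusp28 (a phosphatase) differed by 0.49 and 0.50 without overlap. Their limma adjusted p-values, like that of Ecsit, were 0.0615, and after rescaling those of all 4 genes were 0.395 to 0.477. Among the lower sense genes after Inpp5d, Nde1 (a dynein regulator), Car9 (a carbonic anhydrase), Cacna1g (a T-type calcium channel) and Kcnab1 (a potassium channel subunit) differed by -0.34 to -0.16 with overlapping groups.

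The antisense to sense ratio asks whether the partners of a pair moved by different amounts. It was compared by limma over 745 pairs of any class, of which 165 were antisense. Among these, 0 were called (background 0.134%), while 5 (3.03%) were higher and 1 (0.606%) lower at an unadjusted p under 0.05, against 2.55% and 2.28%. The groups did not overlap for 5 higher ratios (3.03%, background 1.48%) and for 2 lower ones (1.21%, background 1.74%). The median difference was 0.05 against -0.05 for all pairs. Besides Smarca2, Hexim2 and Mrc2, the higher ratios without overlap were those of the first Cox7a1 transcript (0.83; limma adjusted p 0.778) and of Tenm2 (1.09; limma adjusted p 0.778), a teneurin whose mRNA stayed under 0.1 FPKM. Cox7a1 mRNA had a mean near 0.1 FPKM, the value added to each level in the ratio. The lowest p among the lower ratios was that of Samd4a, a translational repressor, at -1.26 (SE 0.54; limma adjusted p 0.778). The other 4 ratios of lowest p in that direction, of Pip4k2c, Ppp2r3c, Bid and a second LOC100361645 transcript, differed by -2.59 to -1.73 with overlapping groups. The 2 lower ratios without overlap were those of the first LOC100361645 transcript (-1.70) and Pcif1 (-0.35; chosen after its values were seen), both with a limma adjusted p of 0.778. The Samd4a antisense transcript was at 1.47 FPKM in the controls and 0.944 FPKM in nitroglycerin libraries on average, and Samd4a itself at 4.49 ± 1.25 and 7.25 ± 2.12 FPKM (SD, n = 4 per group). For Smarca2 the ratio had a limma adjusted p between 0.0599 and 0.786 over 14 settings, and none of the 10 ratios of lowest p in either direction passed in any setting.

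The tested antisense transcripts were also grouped by the role of the sense gene, in groups drawn up after the members had been seen. Those opposite to transcription and chromatin genes had the highest median log2 difference, 0.73 over 26 transcripts (20 above 0), and 4 were higher at an unadjusted p under 0.05, where 68.5% of all tested lncRNAs were above 0 and 7.62% higher. Cell cycle and DNA repair followed at 0.64 over 11 transcripts, then matrix, cell surface and secreted proteins at 0.43 over 20. Those opposite to signalling genes had the lowest median, 0.16 over 27 transcripts with a range of -2.37 to 2.15, and 10 of the 27 belong to Inpp5d. By limma 0 transcripts were called in any group, and the median of all tested lncRNAs was 0.36. The groups were not compared after rescaling. The sense genes of these groups had medians between -0.16 (ion channels and transporters) and 0.34, with 0.30 for transcription and chromatin.

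**Figure D5:**
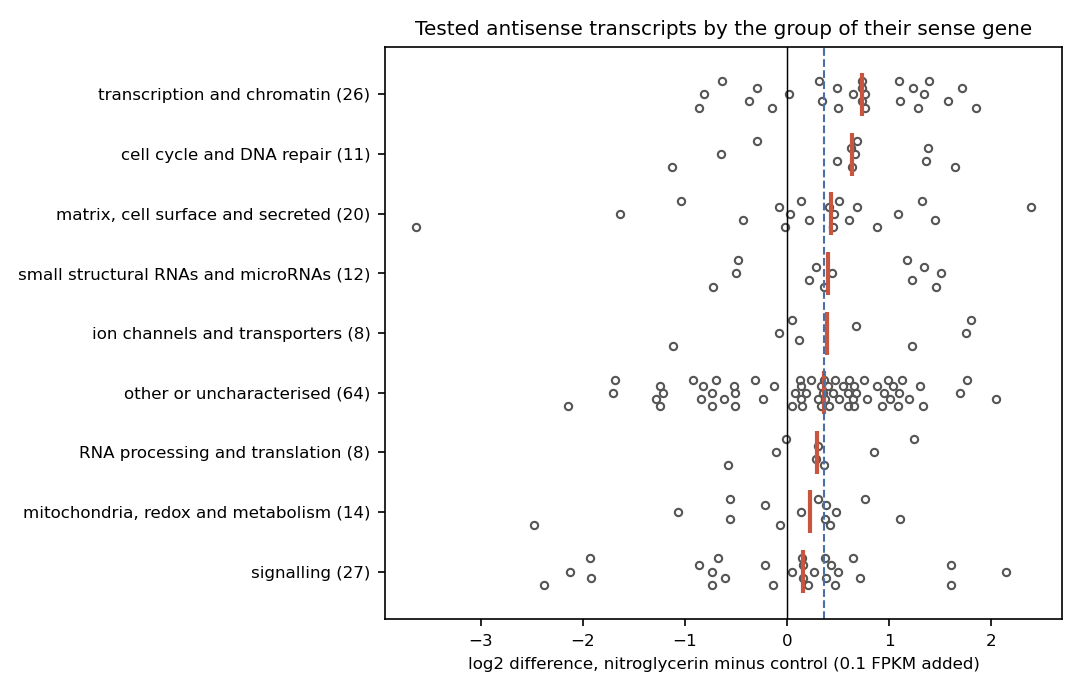
log2 difference (nitroglycerin minus control, 0.1 FPKM added) of each of the 190 tested antisense transcripts, by role of the sense gene with the number tested in parentheses. Circles are transcripts, spread vertically for legibility; thick bars are group medians, and the dashed line is the median of all tested lncRNAs, 0.36.

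Genes that make, trim, sense or act through antisense RNA were taken from prepared lists and read from the gene fit (background 1.29% called higher). Of 26 tested genes of the nuclear exosome and of transcription termination, 2 were called higher by limma: Cpsf1, a subunit of the cleavage and polyadenylation complex, and Ints11, the endonuclease of the Integrator complex. Cpsf1 rose from 3.59 ± 0.385 to 6.13 ± 0.468 FPKM (limma adjusted p 0.0475, n = 4 per group) and Ints11 from 2.67 ± 0.123 to 4.88 ± 0.859 FPKM (limma adjusted p 0.0492). The list's median log2 difference was 0.38 against 0.30 over all genes, with 17 of 26 higher at an unadjusted p under 0.05 (34.1% of all gene rows), and after rescaling 0 were called and the median was 0.08 against 0.01. By limma 0 were called among 22 tested genes of double-stranded RNA editing, processing and sensing (9 higher at an unadjusted p under 0.05), 17 of antisense-recruited chromatin silencing (7 higher), and 26 genes with known antisense transcripts (7 higher), beside the same 34.1% of all gene rows. Their medians were 0.30, 0.29 and 0.29.

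Members of these lists that had a predicted antisense transcript were Smarca2, Ezh2, Bace1 and Nr1d1. Ezh2 encodes the histone methyltransferase of Polycomb complex 2; its antisense transcript was at 0.888, 1.12, 1.05 and 1.25 FPKM in controls and 1.79, 1.28, 0 and 2.48 FPKM in nitroglycerin libraries. Bace1, the beta-secretase, has a known antisense transcript; the one predicted here was at 2.11, 0, 2.58 and 2.64 FPKM in controls and 4.46, 0, 3.91 and 4.68 FPKM in nitroglycerin libraries, listed at 0 in library 2 of each group. The Nr1d1 antisense transcript was at 2.05 ± 0.568 and 1.63 ± 0.345 FPKM (SD, n = 4 per group). In all 3 the groups overlapped, and the limma adjusted p was 0.745 to 0.922.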

How the data were processed

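RNA of 8 thoracic aorta libraries was sequenced after removal of ribosomal RNA, as the labels' protocols say. HISAT2 2.0, StringTie 1.3.0, Bowtie 0.12.2 and the builds Rnor_6.0 and mm8 appear in the submitters' processing notes without their roles, so coordinates are given as in the deposited lncRNA table. The authors deposited FPKM per gene and per assembled lncRNA transcript, and for the latter also coverage per base and a CPC score and a CNCI score of coding potential, per the file headers. Coverage divided by FPKM was constant within a library and gave its aligned gigabases. Read counts were not used here, so no counting intervals were computed, and FPKM is relative to everything else in a library.

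Antisense transcripts (class code x) were paired with annotated gene rows by symbol. Groups were compared in limma 3.58.1 (R 4.3.3) with a trended prior variance, and p-values were adjusted by the Benjamini-Hochberg method over each whole table: log2(FPKM + 0.1) for 2390 lncRNAs with 0.1 FPKM in at least 4 libraries, log2(FPKM + 1) for 12977 gene rows with 1 FPKM in at least 4, and the log2 ratio with 0.1 added for 745 pairs. Differences on these scales understate those of low transcripts. A call is an adjusted p under 0.05. The members and lists were chosen with earlier results of these data known, and the groups of sense genes after the members were seen. Transcripts and genes are named by a rule: the 10 lowest p-values of antisense transcripts in each direction, the 5 lowest of sense genes and of ratios in each direction, the 5 highest levels among all, among spliced transcripts and relative to the sense gene, and any whose sense gene is in a pathway list. Others named were chosen after their values were seen: the neighbouring RefSeq genes, the same-strand exceptions, further transcripts of the Inpp5d, Mrc2 and Traf3ip2 loci, and list or marker genes. Promoters and neighbours are from RefSeq (GRCr8).

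On simulated data with known changes, limma recovered 5.97%, 28.4% and 53.0% of lncRNAs changed by 1, 2 and 4 on the log2 scale among 2390, 59.7%, 85.1% and 95.5% of genes among 12977, and 19.4%, 35.8% and 66.7% of ratios among 745. Alternatives covered rescaling (not for ratios), pseudocounts, filters, the trend, the replicate number as a block and each library left out. Python 3.11.15 with pandas 2.3.3 and matplotlib 3.10.9 made the tables and plots.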

Additional observations from a re-analysis of the deposited data

Results flagged for a closer look

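In 9 of 132 groups of 4 libraries examined (6.82%), 1 library stood apart from the other 3 by Dixon's test at its 95% critical value. For normally distributed values chance marks about 1 in 20 groups. Many transcripts here held exact 0s, so that rate cannot be set against the 6.82%. Where 3 libraries are at 0, any value above 0 in the other is marked. In 4 of the 9 groups a single nitroglycerin library had a value while the other 3 were at 0: the antisense transcripts of RT1-CE6 (0.123 FPKM in library 3), Cox7a1 (the second transcript, 1.51 FPKM in library 4), Pip4k2c (0.341 FPKM in library 4) and Wnt2b (1.23 FPKM in library 2). In 2 of them nitroglycerin library 2 alone was at 0 FPKM, for the antisense transcripts of Cnbd2 (24.9 to 27.5 FPKM in the others) and Bace1 (3.91 to 4.68 FPKM in the others). Control library 1 was low for the first Cox7a1 antisense transcript, at 2.60 FPKM against 3.93 to 4.03 FPKM, and for the sense gene Car9, at 1.05 FPKM against 1.51 to 1.58 FPKM. Control library 3 was high for the sense gene Inpp5d, at 13.6 FPKM against 8.41 to 8.80 FPKM.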

How the results depend on the processing

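The antisense transcripts, ratios and sense genes named for the lowest p-values in each direction kept that direction in every setting that gave a value. So did the Inpp5d and Mrc2 antisense loci. The Cox7a1 antisense locus did not, with a log2 difference of 0.22 and of -0.10 after rescaling. The number of antisense transcripts called was 0 except with 0.1 FPKM required in all 8 libraries (1) or a value above 0 in all 8 (1), Smarca2 both times. The number higher at an unadjusted p under 0.05 (14) was 4 after rescaling, 9 without the mean-variance trend, 6 with values above 0 in all 8 libraries and rescaling, and 7 to 15 with 1 library left out. The number lower (4) was 1 with 0.1 FPKM in all 8 libraries, 2 with values above 0 in all 8, and 2 to 6 with 1 library left out. The median log2 difference (0.37) was 0.026 after rescaling and 0.087 with values above 0 in all 8 and rescaling. The number of sense genes called (1) was 0 after rescaling, with a pseudocount of 0.1, without the filter and without the trend, 14 with 1 FPKM in all 8 libraries, 7 with annotated rows only, and 0 to 3 with 1 library left out. List members called (2) were 0 in the same 4 settings, 15 with 1 FPKM in all 8 libraries, 11 with annotated rows only and 0 to 3 with 1 library left out. The cause of these differences in count between settings was not tested. Among alternatives for the named sense genes, 126 kept their side of the threshold, 10 passed it and 11 lost it. Recovery on simulated data was low for lncRNAs changed by 1 or 2 on the log2 scale (5.97% and 28.4%), and was not split by level. The depth in reads is unknown.

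Libraries share replicate numbers across groups. The deviations of same-numbered libraries correlated between -0.02 and 0.02 over lncRNAs and -0.01 and 0.13 over genes. Differently numbered ones correlated between -0.05 and 0.05 over lncRNAs and -0.18 and 0.09 over genes. The highest values over genes were those of replicates 1 and 4, at 0.13 and 0.12, so a pairing by number is not settled. With the number as a block, limma called 0 antisense transcripts, 0 ratios, 0 sense genes and 0 list members, with 10 and 3 antisense transcripts higher and lower at an unadjusted p under 0.05.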
